A study of Mus musculus with 16 samples.

Results

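Chromatin immunoprecipitation sequencing (ChIP-seq) maps where a protein or a histone mark sits on the genome, and 406 broad regions of H3K27ac that each held several MyoD binding sites are described here across control cells and cells with LncMyoD knocked down. The regions were chosen from the measured peaks. The peaks of the 4 H3K27ac libraries were merged wherever they overlapped or touched, and the peaks of the 4 MyoD libraries likewise. An H3K27ac region was taken when every H3K27ac library had a peak in it, when its merged width was at least 4 kb, and when it overlapped at least 2 merged MyoD regions that had a peak in every MyoD library. Such MyoD regions are called sites below. Of 59960 merged H3K27ac regions on chromosomes 1 to 19 and X, 26113 had a peak in all 4 lists, 2016 of these were at least 4 kb wide, and 406 of these met the last condition (0.677% of all regions). The presence of both signals in all libraries, the width and the number of sites are therefore properties of the choice and are described without a test.

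The cells were satellite cells, the muscle stem cells of the hindlimb, from mice of the strain C57BL/6, cultured in F10 medium with 10% HS and P/S. Libraries were made by ChIPmentation, in which a transposase adds the sequencing adapters to the precipitated chromatin. The treatment text gives small interfering RNA against LncMyoD, a long noncoding RNA, for 48 h before harvest, and this text is the same for all libraries. Titles and genotype labels are all that set control and knockdown libraries apart, and the treatment of the control cells is not known here. Each antibody was used on 2 control and 2 knockdown libraries, and the labels do not tie a library to an animal or a culture, so the spread between libraries may be technical.

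H3K27ac is the acetylation of lysine 27 of histone H3, a mark of active promoters and enhancers, and long stretches of it are known from genes that define the identity of a cell. MyoD is a basic helix-loop-helix transcription factor that can turn other cell types into muscle. It binds DNA as a dimer with an E protein at the E-box, a short palindrome-like element with the letters CANNTG, and the forms CAGCTG and CACCTG are those known for MyoD. In satellite cells MyoD rises on activation and drives the genes of the committed myoblast and of differentiation.

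Promoter sequence shows how the MyoD summits of these regions sit beside such letters. RefSeq promoter windows of GRCm38.p6, the assembly of the mm10 build named for the peaks, span 250 bases before to 50 bases after a transcription start. The 5 windows below are printed for the 250 bases before the start, 5′ to 3′ on the strand of the gene, because a MyoD summit of one of the 406 regions fell in each and because they belong to genes of the junction, of the muscle cytoskeleton and of myogenic control. Capitals mark every CANNTG.
Chrna1 promoter, chr2:73580339-73580588, minus strand: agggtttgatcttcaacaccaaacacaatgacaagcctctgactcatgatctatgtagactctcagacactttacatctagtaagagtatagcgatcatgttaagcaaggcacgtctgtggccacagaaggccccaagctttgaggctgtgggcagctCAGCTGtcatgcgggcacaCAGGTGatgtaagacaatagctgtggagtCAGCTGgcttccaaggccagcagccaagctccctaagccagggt
Chrnb1 promoter, chr11:69795938-69796187, minus strand: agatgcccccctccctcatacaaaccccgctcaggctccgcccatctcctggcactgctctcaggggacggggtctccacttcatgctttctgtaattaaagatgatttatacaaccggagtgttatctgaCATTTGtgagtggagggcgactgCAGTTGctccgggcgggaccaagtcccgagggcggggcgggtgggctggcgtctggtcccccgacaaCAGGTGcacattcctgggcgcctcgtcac
Musk promoter, chr4:58285712-58285961, plus strand: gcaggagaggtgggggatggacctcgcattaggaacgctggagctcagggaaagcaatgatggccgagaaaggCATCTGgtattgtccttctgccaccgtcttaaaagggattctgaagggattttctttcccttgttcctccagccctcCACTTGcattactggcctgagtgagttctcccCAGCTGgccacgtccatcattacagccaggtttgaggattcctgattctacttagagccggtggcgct
Hes6 promoter, chr1:91414039-91414288, minus strand: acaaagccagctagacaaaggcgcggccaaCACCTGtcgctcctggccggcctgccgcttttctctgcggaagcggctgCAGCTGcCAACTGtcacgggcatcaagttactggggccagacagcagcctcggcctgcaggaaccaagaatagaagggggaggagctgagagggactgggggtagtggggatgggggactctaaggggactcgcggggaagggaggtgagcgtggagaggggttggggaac
Des promoter, chr1:75360042-75360291, plus strand: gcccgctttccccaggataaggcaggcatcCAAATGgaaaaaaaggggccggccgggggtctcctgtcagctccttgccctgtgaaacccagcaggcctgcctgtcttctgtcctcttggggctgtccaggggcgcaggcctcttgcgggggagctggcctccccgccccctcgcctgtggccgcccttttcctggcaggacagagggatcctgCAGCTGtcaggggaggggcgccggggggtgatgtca

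The MyoD summit lay at position -79 from the start of Chrna1, -77 from that of Chrnb1, -76 from that of Musk, -183 from that of Hes6 and -55 from that of Des. The printed bases of Chrna1 held 2 copies of CAGCTG and 1 of CACCTG, which reads CAGGTG on the printed strand, and those of Hes6 held 1 of each. Both strands were searched, and CAGCTG and CACCTG are both instances of CANNTG. The shares that follow are of whole windows, with the 50 bases after the start that are not printed. Of all 32619 promoter windows 72.3% held a CANNTG and 33.1% held CAGCTG or CACCTG. Inside the 406 regions lay 189 windows of 142 genes, and 40 of these, from 35 genes, contained the summit of a MyoD site. CAGCTG or CACCTG was found in 92.5% of these 40 windows and in 31.5% of the 149 windows without a summit. Elsewhere in the genome, 452 windows held the summit of a MyoD region of all 4 lists, and 90.9% of them had one of the 2 forms. CACCTG was found in 52.5% of the 40 windows and in 34.3% of the 452, and CAGCTG in 65% and 71.7%. Windows of 1 gene can overlap and share a summit, so these shares are a description and were not tested, and a match of letters is not a binding site.

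A pair of microRNA genes that lie inside the regions also have mature sequences in RefSeq, printed here with the seed (bases 2 to 8) in capitals.
mmu-miR-206-3p: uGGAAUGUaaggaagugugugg
mmu-miR-22-3p: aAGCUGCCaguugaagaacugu

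Mir206, which encodes a microRNA of skeletal muscle, lies on chromosome 1 (mature form at chr1:20679055-20679076, plus strand) in a region that also holds its host transcript Lincmd1, and the nearest MyoD summit was 919 bp away. Mir22 (mature form at chr11:75463772-75463793, plus strand) lies with its host transcript Mir22hg in a region on chromosome 11, and the nearest MyoD summit was 1039 bp away.

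The deposited H3K27ac lists held 39934 to 54008 peaks on these chromosomes and the MyoD lists 13069 to 17724, with the fewest in knockdown 2 for both antibodies. Read depth is unknown. Each peak carries the authors' fold enrichment over background at its summit, which belongs to its own list. Its median over the 9909 MyoD regions of all 4 lists was 8.86 and 8.61 in control cells against 8.84 and 7.84 in knockdown cells, so folds of different lists are not on one scale, and they are printed as a description. To set libraries side by side, the highest fold of a region was turned into a percentile among the 26113 H3K27ac regions, or the 9909 MyoD regions, that had a peak in all 4 lists. The words higher, lower and overlapping, used of a region or site, refer to these percentiles.

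The 406 regions were 4008 to 39925 bp wide with a median of 6785 bp, and together they covered 3.32 Mb. The median was 5078.5 bp in the 850 broad regions of all 4 lists with exactly 1 MyoD site and 4775 bp in the 386 without any MyoD region. Exactly 2 sites were found in 312 regions, 3 in 76, 4 in 15, 5 in 2 and 7 in 1. The narrowest were those at Tnnt1 (4008 bp), inside Msi2 (4013 bp) and inside Stard13 (4016 bp), and the widest that fell short were those at Dop1b (3996 bp), at Flrt1 and Macrod1 (3985 bp) and at Sun1 (3978 bp). In all, 188 regions with at least 2 sites fell below 4 kb. The merged width is often the sum of several peaks: 218 of the 406 regions held a single peak of at least 4 kb in every list, and 60 were 1 unbroken peak in every list.

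**Figure D1:**
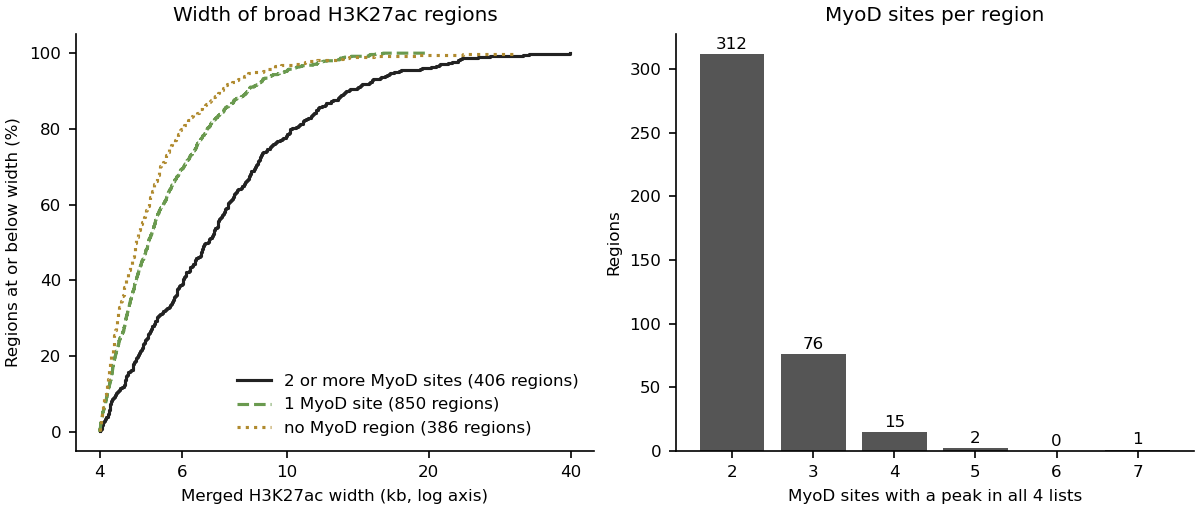
Left, cumulative share of regions (y axis, percent) at or below a merged H3K27ac width (x axis, kb, log axis) for broad regions of all 4 lists with 2 or more MyoD sites, with 1 site and with no MyoD region; right, number of the 406 regions (y axis) by their number of MyoD sites (x axis). The curve of the 406 regions lies to the right of both others, and 312 of them hold exactly 2 sites.

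H3K27ac was high in these regions as well as wide. Their mean percentile over the 4 lists had a median of 95.0, against 90.6 in broad regions with 1 site, 81.6 in broad regions without MyoD and 48.8 over all regions of all 4 lists. Among the regions 279 stood above the 90th percentile, and only 2, inside Zmiz1 and Rps6ka2, stood below the 50th. Across the 406 regions, width and H3K27ac percentile had a Spearman correlation of 0.40, and width and site number one of 0.35. The values share the same merged peaks, so both are descriptions.

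The regions held 929 MyoD sites, of 9909 MyoD regions of all 4 lists, and a further 221 MyoD regions that at least 1 list lacked. The sites had a median percentile of 59.2, close to the 60.9 of the single sites of other broad regions. The median was 49.9 for sites in H3K27ac regions under 4 kb and 30.6 for sites outside any H3K27ac region. Sites of 1 region were ordered by percentile, which by itself sets a strongest and a weakest apart. No pairs of unrelated sites were set beside these values. The strongest site of a region had a median percentile of 81.8 and the weakest one of 35.9, and in the 312 regions with exactly 2 sites the percentiles of the pair had a Pearson r of 0.003 across regions. The summits of such a pair lay 654 to 14195 bp apart with a median of 2245 bp, and 40 pairs were under 1 kb apart. The highest H3K27ac summit of a region lay a median of 363.5 and 352 bp from the nearest MyoD summit in control cells. The distances were 339.5 and 372.5 bp in knockdown cells. The MyoD summit was the median position over the 4 MyoD lists, the same for every library, so only the H3K27ac summit could differ between libraries.

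Most of these regions did not cover the end of a gene. A protein-coding gene started or ended in 120 of them (29.6%), 190 lay within a gene body, 62 lay outside genes with one within 50 kb, and 34 had none that near. The share holding a gene end was 27.1% over all 26113 H3K27ac regions with a peak in every list, close to that of the 406. It was 28.4% in broad regions with 1 site and 43.3% in those without MyoD. These broad groups and the 406 regions were also limited to the middle range of the widths of the 406, 5066 to 9186 bp. The shares were then 25.2% for the 406 regions, 30.2% with 1 site and 42.4% without MyoD. Of the sites, 134 of 929 (14.4%) lay within 1 kb of a gene end. The share was 12.2% for the single sites of other broad regions and 13.3% for all 9909 MyoD regions with a peak in every list. Of the 406 regions, 74 lay within 50 kb of a further one of the set, as at Id3 and Msi2.

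Genes of muscle control, of the satellite cell, of the junction and of the actin cytoskeleton were found in these regions. Of 21627 genes, 322 (1.49%) overlapped one of the regions, and 155 had an end in one. Among lists of known function, 12 of 52 myogenic regulators overlapped one (23.1%), 8 of 36 satellite cell and Notch genes (22.2%), 8 of 36 fusion, junction and membrane genes (22.2%), 9 of 34 actin cytoskeleton genes (26.5%), 5 of 28 excitation-contraction genes (17.9%) and 5 of 57 sarcomere genes (8.77%). Matrix and adhesion genes gave 0 of 41, although 9 of the 41 overlapped a broad H3K27ac region of some kind. A list of this size cannot tell that count from the 1.49% of all genes. It does not hold every collagen and laminin gene: Col19a1 and Lamb3, not on it, each overlapped one of the regions. Growth factor genes gave 2 of 39 (Igf2r and Smad3), AP-1 and immediate early genes 2 of 24 (Myc and Klf6), cell cycle genes 1 of 23 (Ccnd3), Hippo pathway genes 1 of 13 (Amotl2) and housekeeping genes 1 of 14 (Gapdh). Of the genes that overlapped any broad region, 23.2% overlapped one of the 406. This share was 83.3% (5 of 6) for the excitation-contraction list, 61.5% (8 of 13) for fusion and junction and 42.9% (9 of 21) for actin cytoskeleton. It was 41.7% (5 of 12) for sarcomere, 34.8% (8 of 23) for satellite cell and Notch and 33.3% (12 of 36) for myogenic regulators. Further lists lay on both sides of 23.2%. Markers of smooth muscle and pericytes had 66.7% (2 of 3), housekeeping genes 33.3% (1 of 3) and cell cycle genes 25% (1 of 4). AP-1 genes had 20% (2 of 10), growth factor genes 14.3% (2 of 14), Hippo genes 14.3% (1 of 7) and matrix genes 0 of 9. Broad regions without MyoD held 1.57% of all genes, and they too held more of some lists. Their shares were 30.8% of Hippo genes (4 of 13) and 17.9% of growth factor genes (7 of 39), above those of the 406. They also held 13.5% of myogenic regulators, 16.7% of satellite cell and Notch genes and 14.7% of actin cytoskeleton genes. Gene length was not matched, and a longer gene can overlap more regions, so these shares describe the lists without a test.

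The label of the cells was set against defining genes. Of the myogenic regulators 47 of 52 overlapped an H3K27ac region of all 4 lists of any width, of the satellite cell and Notch genes 33 of 36, and of all genes 10920 of 21627. Among markers of other cell types the count was 8 of 12 for smooth muscle and pericytes, 6 of 12 for endothelium, 5 of 10 for Schwann and neural cells, 3 of 10 for immune cells and 3 of 12 for fibro-adipogenic cells. The 406 regions held 0 of 12 endothelial, 0 of 12 fibro-adipogenic, 0 of 10 immune and 0 of 10 Schwann and neural markers, and lists of this size cannot tell such counts from the 1.49% of all genes. Of the smooth muscle and pericyte markers they held 2 of 12, namely Acta2, smooth muscle α-actin, and Des, desmin, which muscle cells also make.

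**Figure D2:**
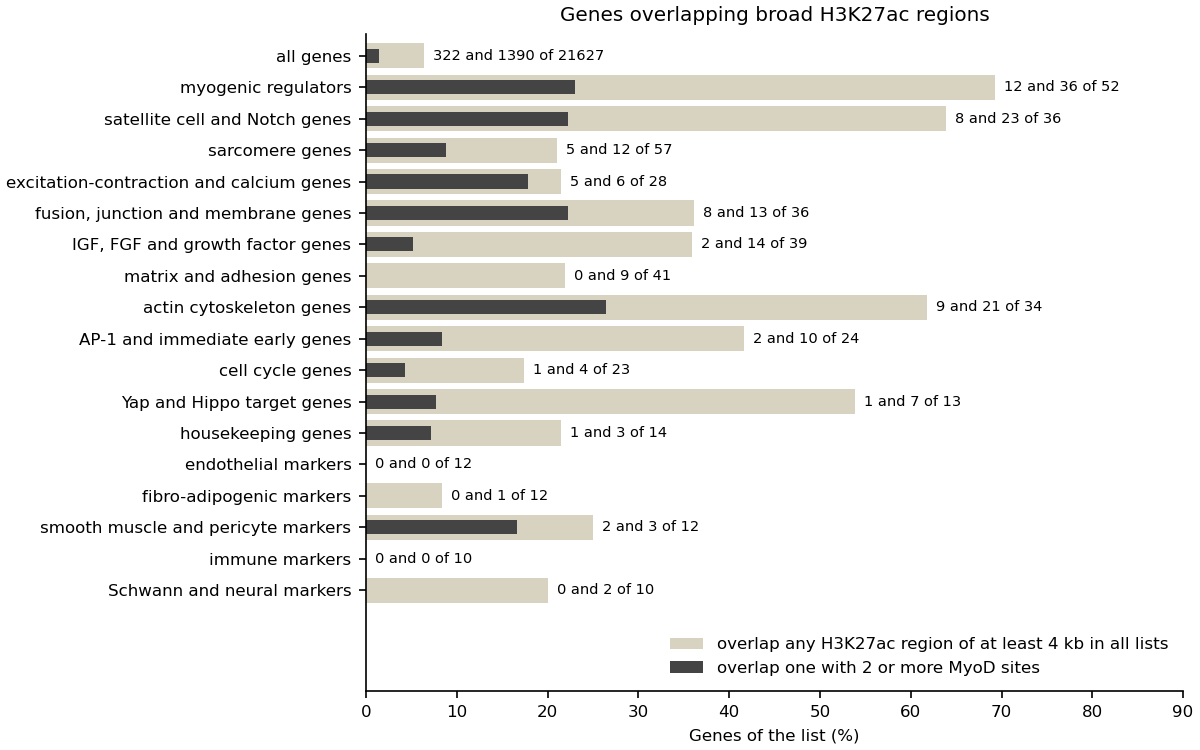
Percentage of the genes of each list (x axis) that overlap any H3K27ac region of all 4 lists of at least 4 kb (light bars) and that overlap one with 2 or more MyoD sites (dark bars), with the counts beside the bars. The lists of muscle control, satellite cells, fusion and junction and the actin cytoskeleton have dark bars above 20%, and all genes have 1.49%.

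Among regulators of muscle genes, the region nearest to Myod1 lay 21.9 kb from that gene on its upstream side, the side known for its distal enhancers (chr7:46346942-46354606, 7665 bp). Its H3K27ac fold was 20.1 and 21.9 in control cells against 17.8 and 19.8 in knockdown cells. The MyoD site at chr7:46348659-46349386 had a fold of 14.3 and 14.2 in control cells against 11.8 and 8.62 in knockdown cells, and that at chr7:46349977-46350617 one of 15.5 and 16.9 in control cells against 15.1 and 12.1 in knockdown cells. Their percentiles were 85.9 and 86.0 in control cells against 74.3 and 60.2 in knockdown cells at the first and 88.8 and 92.3 in control cells against 87.0 and 83.9 in knockdown cells at the second, lower in both knockdown lists, and the third site overlapped between the groups. Id1 and Id3 encode inhibitors that keep E proteins from MyoD. The region at Id1 (chr2:152732949-152740427) had an H3K27ac fold of 18.1 and 26.6 in control cells against 23.3 and 24.3 in knockdown cells, and the stronger of its sites a MyoD fold of 10.9 and 14.9 in control cells against 8.47 and 11.8 in knockdown cells, with overlapping groups in both. Runx1, a transcription factor of activated and regenerating muscle, had 2 regions, and the one at a gene end (chr16:92821250-92829631) had an H3K27ac fold of 22.3 and 20.8 in control cells against 24.9 and 22.1 in knockdown cells. Vgll3, a cofactor of the Tead factors, had a site near its start (chr16:65815073-65815944) with a MyoD fold of 17.5 and 18.5 in control cells against 14.0 and 11.2 in knockdown cells, lower in rank in both knockdown lists. Mef2d, a partner of MyoD, had 3 sites, the first with percentiles of 10.6 and 12.9 in control cells against 30.1 and 28.7 in knockdown cells, higher in rank in both knockdown lists. The other listed regulators that overlapped a region were Snai2, Eya1, Zeb2, Nfic, Tead1, Tead4 and Celf2. Myod1 itself, Myog, Myf5 and Myf6 are on the list and overlapped none.

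Among satellite cell genes, Cdh15 held the site of highest MyoD fold. Cdh15 encodes M-cadherin, an adhesion molecule between satellite cell and fibre, and its region (chr8:122848234-122854641, 6408 bp) held 4 sites over the start and the first part of the gene. Its H3K27ac fold was 20.5 and 22.5 in control cells against 21.6 and 22.8 in knockdown cells. The strongest site (chr8:122850455-122851219) had a MyoD fold of 30.1 and 25.5 in control cells against 40.2 and 41.1 in knockdown cells. The site at chr8:122851393-122852184 had one of 7.50 and 9.94 in control cells against 12.9 and 11.8 in knockdown cells, and that over the start one of 11.6 and 11.3 in control cells against 14.7 and 11.4 in knockdown cells. These 3 sites ranked higher in both knockdown lists than in both control lists, while the fold of the start site in knockdown 2 lay within the range of the controls, and the fourth site overlapped. Fgfr4, an FGF receptor of myogenic cells, held 3 sites, of which the strongest (chr13:55168831-55169629) had a fold of 23.8 and 25.2 in control cells against 27.6 and 23.1 in knockdown cells, and the other 2 ranked lower in both knockdown lists. Hes6 encodes a partner of the Notch target Hes1 that favours differentiation. Its upstream site (chr1:91413905-91414596) had a MyoD fold of 30.7 and 21.5 in control cells against 28.0 and 22.3 in knockdown cells, with overlapping groups, in the window printed above. Itga7, a laminin receptor, Ncam1, a cell adhesion molecule, Met, the HGF receptor, Notch2 and Heyl, a Notch target, were the other listed genes that overlapped a region. Pax7 and Pax3 are on the list and overlapped none.

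The receptor side of the neuromuscular junction was represented by 4 genes. Chrna1 and Chrnb1 encode the α and β subunits of the muscle acetylcholine receptor, Musk the kinase that gathers these receptors and Dok7 its adaptor. The Chrna1 region (chr2:73571269-73582887) was among the 8 of highest H3K27ac rank, with a fold of 24.9 and 29.9 in control cells against 26.9 and 23.6 in knockdown cells, and its promoter site had a MyoD fold of 20.5 and 19.5 in control cells against 24.3 and 17.2 in knockdown cells. The promoter site of Chrnb1 had one of 15.5 and 12.9 in control cells against 14.0 and 11.0 in knockdown cells, and that of Musk one of 9.58 and 8.61 in control cells against 10.3 and 9.40 in knockdown cells. The groups overlapped at Chrna1 and Chrnb1. At Musk the percentiles were 58.1 and 50.5 in control cells against 64.4 and 67.5 in knockdown cells, higher in both knockdown lists although the printed folds of the groups overlapped. The stronger site at Dok7 (chr5:35054555-35055561) had a fold of 20.8 and 18.2 in control cells against 16.4 and 16.9 in knockdown cells, with overlapping percentiles. Mymx, which encodes the fusion peptide myomixer, shared a region with Slc29a1 (chr17:45594001-45602748) whose H3K27ac fold was 16.0 and 16.6 in control cells against 15.6 and 13.1 in knockdown cells. Myo10, a myosin of filopodia, Jam3, a junction protein, and Utrn, utrophin, were the rest of this list.

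Genes of the contractile apparatus had sites of low and of high rank. At Des the promoter site had a MyoD fold of 11.6 and 8.94 in control cells against 13.6 and 9.01 in knockdown cells, and a second site 724 bp further from the gene had 8.92 and 6.95 in control cells against 6.87 and 5.43 in knockdown cells, with lower percentiles in both knockdown lists. At Ttn, the giant sarcomere protein titin, the 2 sites had folds of 7.27 and 5.96 in control cells against 9.28 and 6.27 in knockdown cells and of 6.61 and 7.29 in control cells against 5.16 and 6.27 in knockdown cells, with percentiles no higher than 56.0. At Tnnt1, slow troponin T, the site at chr7:4514369-4514790 had a fold of 6.28 and 6.29 in control cells against 8.10 and 10.2 in knockdown cells, higher in rank in both knockdown lists. Flnc, filamin C of the Z-disc, had a site at chr6:29435769-29436934 with 21.1 and 16.2 in control cells against 12.2 and 10.6 in knockdown cells, lower in rank in both knockdown lists, and a stronger one that overlapped. Atp2a1, the calcium pump of fast fibres, had a site at chr7:126464132-126464671 with 14.9 and 13.6 in control cells against 11.4 and 8.23 in knockdown cells, again lower in rank in both, and another with overlapping groups. Myom1, of the M-band, lay in a region with Myl12a and Myl12b that held 5 sites. Jph2, Srl and Bin1 were further excitation-contraction genes.

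Genes of the actin cytoskeleton and of growth followed no single order. Lmna encodes the lamins A and C of the nuclear envelope, and its region (chr3:88488464-88504761) had 4 sites and an H3K27ac fold of 21.2 and 24.3 in control cells against 22.2 and 13.6 in knockdown cells, with lower percentiles in both knockdown lists. The strongest of its sites (chr3:88496564-88497320) had a MyoD fold of 19.5 and 16.9 in control cells against 17.7 and 14.9 in knockdown cells. Zyx, zyxin of focal adhesions, had a site at chr6:42353975-42354778 with 18.5 and 21.5 in control cells against 19.9 and 19.2 in knockdown cells, and the groups overlapped. Vasp, an actin elongation factor, had its weaker site at chr7:19265273-19265713 with 8.59 and 7.95 in control cells against 6.18 and 4.83 in knockdown cells, lower in rank in both knockdown lists. Tln2, a talin, had both of its sites lower in rank and its H3K27ac higher in both knockdown lists. At Myc, the growth regulator, both sites were weak, and the one at chr15:61984797-61985248 had a MyoD fold of 6.61 and 8.61 in control cells against 8.25 and 8.62 in knockdown cells. Ccnd3, cyclin D3 of myogenic cells, had a site at chr17:47521531-47522377 with 19.8 and 18.9 in control cells against 16.8 and 18.9 in knockdown cells, and both of its sites overlapped between the groups.

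The regions with most sites, most width and highest rank were a mixed group. The single region with 7 sites ran from Iffo1 over Gapdh, a glycolytic enzyme, to Ncapd2 (chr6:125145231-125168802, 23572 bp), with an H3K27ac fold of 26.0 and 29.3 in control cells against 27.8 and 25.9 in knockdown cells. Its strongest site (chr6:125156719-125157637), with a MyoD fold of 30.9 and 32.8 in control cells against 33.5 and 23.5 in knockdown cells, lay in the body of Iffo1. A region inside Msi2, an RNA-binding protein, and that of Myl12a, Myl12b and Myom1 held 5 sites each. The widest lay inside Myh9, non-muscle myosin IIA (39925 bp), followed by Pmepa1 (32636 bp), Tns3 (31636 bp), Lasp1 (29211 bp), Hspg2 (26929 bp) and Jph2 (25452 bp). The strongest MyoD site of the set lay inside Olfml2b (chr1:170655290-170656393), at 48.2 and 46.7 in control cells against 49.4 and 43.9 in knockdown cells, and the next inside Arhgef2, a guanine nucleotide exchange factor (chr3:88629866-88630719), at 37.7 and 37.8 in control cells against 40.2 and 26.0 in knockdown cells. The Lincmd1 region (chr1:20665714-20680754) had 3 strong sites, and that over the Lincmd1 start had a MyoD fold of 24.8 and 27.8 in control cells against 29.5 and 22.3 in knockdown cells. The Mir22 region (chr11:75457002-75465384) was among the 8 of highest H3K27ac rank, at 26.0 and 32.8 in control cells against 26.6 and 29.4 in knockdown cells. In the Lincmd1 and Mir22 regions no site was set apart between the groups. Further regions among these 8 lay at Zfp568, Pknox2, Smug1 and Arl6ip5.

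**Figure D3:**
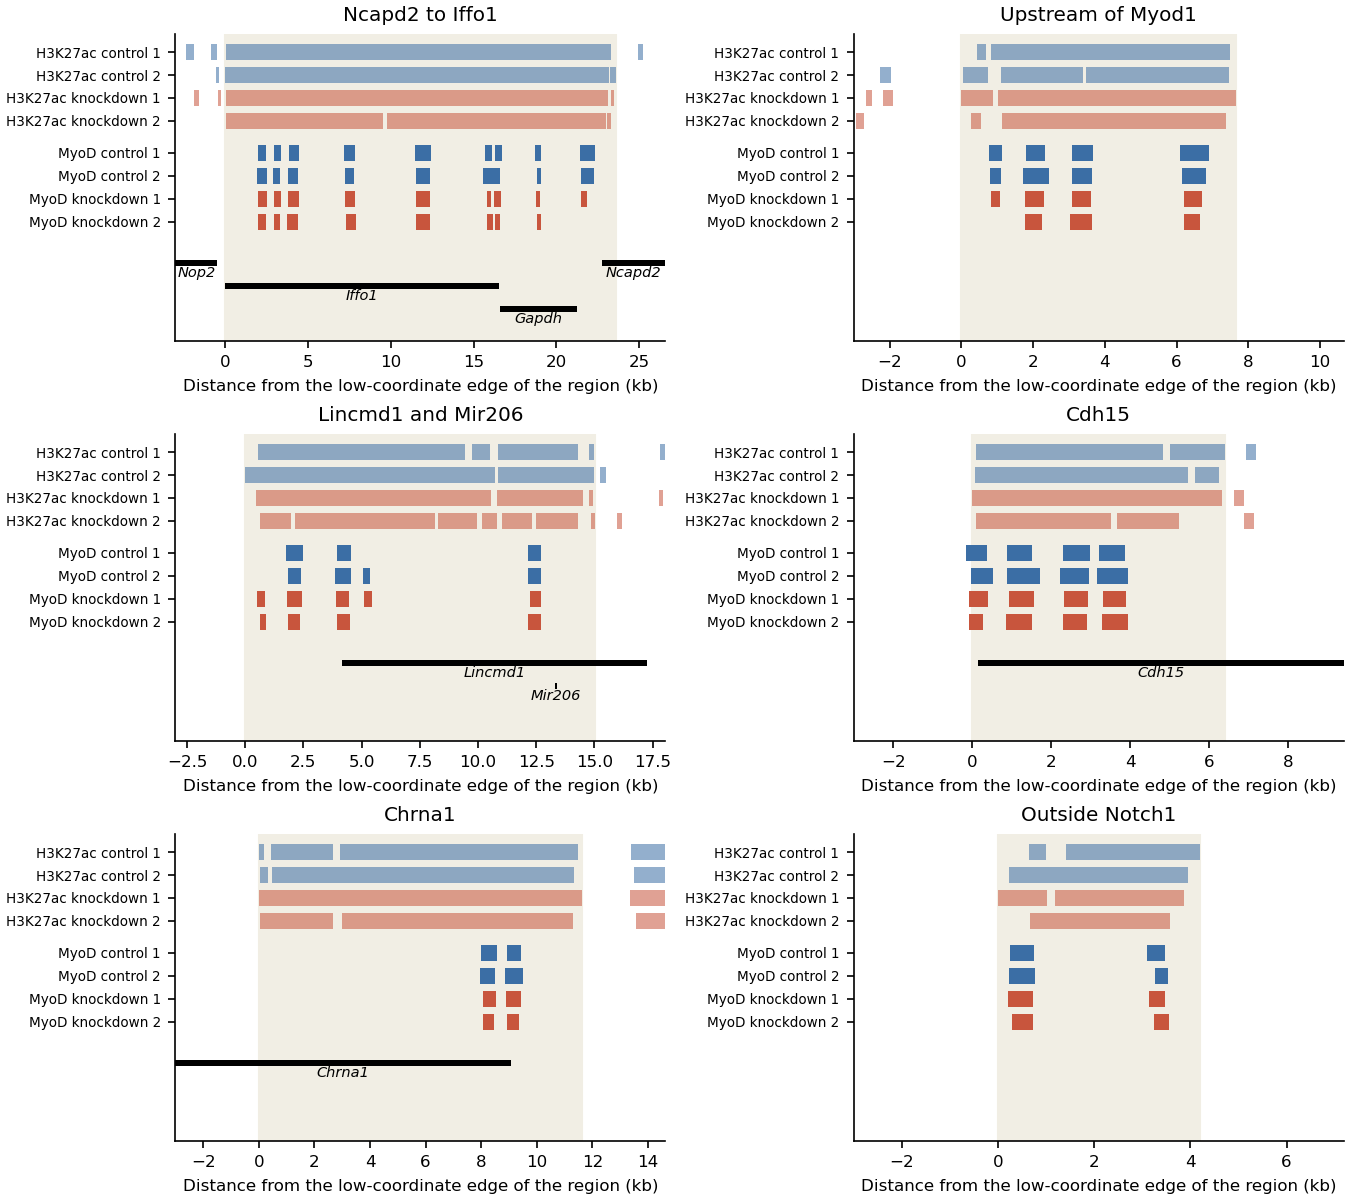
Deposited peaks of each of the 4 H3K27ac (pale) and 4 MyoD (solid) libraries, controls in blue and knockdown in red, at 6 of the regions; the x axis is the distance from the low-coordinate edge of the merged region (kb), the shaded span is the region and black bars are genes. The 7 MyoD sites from Iffo1 to Ncapd2 and the 4 at Cdh15 line up in all lists, whereas the H3K27ac signal is cut into different numbers of peaks.

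The comparison of knockdown with control asks whether these regions differ after knockdown of LncMyoD, first in extent. The share of their bases that lay in an H3K27ac peak was 91.1% and 94.4% in control cells (92.7% ± 2.36, SD, n = 2) against 94.9% and 86.8% in knockdown cells (90.8% ± 5.74, SD, n = 2). The difference of -1.89 percentage points was smaller than the spread between the knockdown libraries. Peak presence and merged width chose the regions, so extent is described without a test. The regions were cut into 2.06 and 1.98 peaks each in control cells against 1.69 and 2.62 in knockdown cells. Knockdown 1 had the widest coverage and fewest peaks of all 4 libraries, and knockdown 2 the reverse. Without knockdown 2, and with the regions rebuilt, both directions turned, to 2.12 percentage points and -0.332 peaks per region. The other 1610 broad regions had a like order, with 86.7% and 91.8% covered in control cells against 92.7% and 79.5% in knockdown cells. Regions made of 1 unbroken peak numbered 156 and 191 in control cells against 225 and 117 in knockdown cells.

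Median ranks within the lists overlapped between the groups for the 406 regions and their sites, though not under every alternative given at the end. The median H3K27ac percentile of the 406 regions was 95.2 and 96.1 in control cells against 94.8 and 95.4 in knockdown cells, which overlapped (difference -0.56, two-sided exact permutation p = 0.667). With 2 libraries against 2 the smallest p that this test can give is 0.333, so it could not reach 0.05. The median MyoD percentile of the 929 sites was 64.0 and 60.6 in control cells against 61.0 and 60.2 in knockdown cells, again overlapping (difference -1.75, exact permutation p = 0.667). With the regions, sites and ranks rebuilt, this MyoD difference was -0.068 without control 1 and -0.711 without control 2. These values belong to 417 and 425 regions, so they are not differences of the medians printed here. The median MyoD fold was 10.2 and 9.60 in control cells against 9.95 and 8.62 in knockdown cells for sites in the regions. In bulk lists like these, a change in the share of cells with a signal and a change in signal per cell cannot be told apart.

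**Figure D4:**
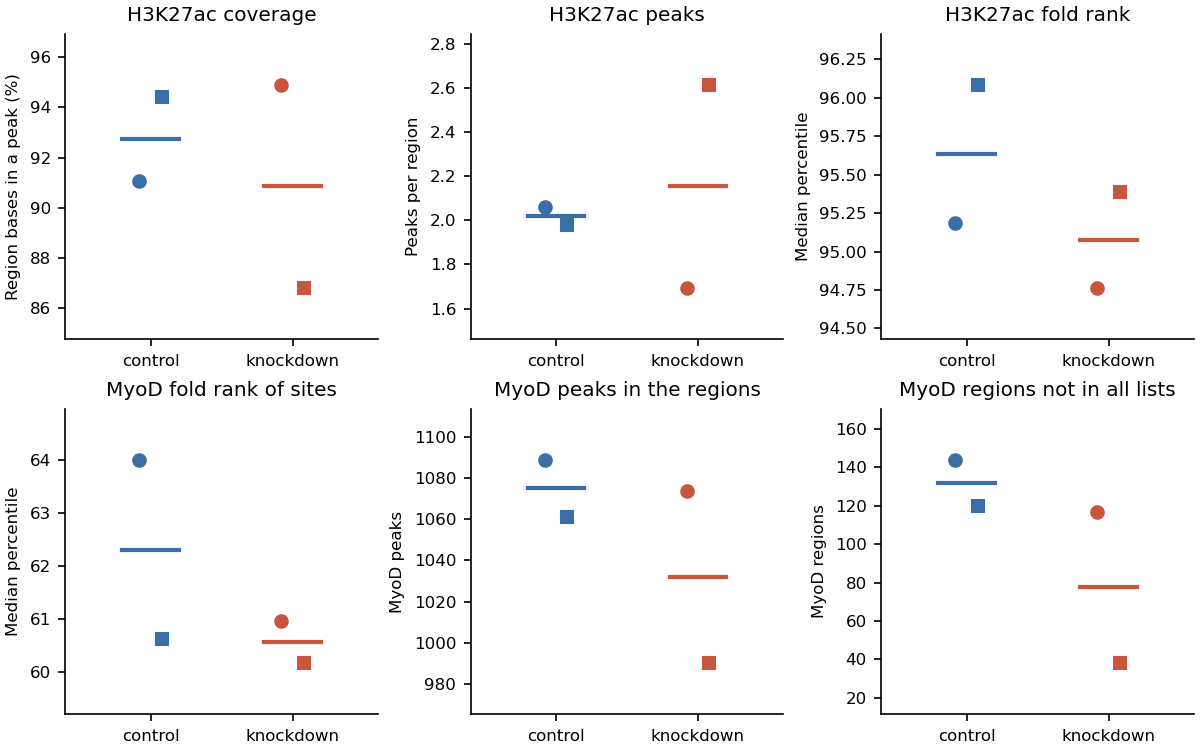
Values of each library for the 406 regions (y axes as labelled on the panels, none starting at 0), with replicate 1 as a circle, replicate 2 as a square and the group mean as a line. In every panel except the last the control and knockdown values overlap, and there the knockdown values, 117 and 38, lie below the control values, 144 and 120. The MyoD regions of the last panel were chosen for a missing peak in at least 1 list.

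Single regions were called lower when both knockdown percentiles were below both control percentiles, and higher in the reverse case. By this rule 75 of the 406 regions (18.5%) had lower H3K27ac, against 15.9% of all 26113 regions, and 62 (15.3%) had higher H3K27ac, against 16.4%. Both shares are near the background. With 1 list left out, 1 library stands against 2 and more regions fall apart by construction: the share of lower regions was 41.1% (34.1% of all regions) when control 1 was dropped and 27.4% (33.2%) for control 2, 31.1% (32.4%) for knockdown 1 and 41.5% (31.4%) for knockdown 2. The share of higher regions was 26.5% (35.8% of all regions), 36.8% (33.0%), 37.1% (34.4%) and 24.3% (30.5%) in the same order, so the regions lay on either side of the background.

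The region with the largest gap in the lower direction lay 27.7 kb from Notch1 (chr2:26531538-26535725). Its H3K27ac fold was 8.74 and 11.8 in control cells against 6.41 and 5.92 in knockdown cells, with percentiles of 63.4 and 76.6 in control cells against 31.6 and 37.5 in knockdown cells. Its stronger MyoD site (chr2:26531733-26532295) had a fold of 16.2 and 15.6 in control cells against 18.8 and 14.9 in knockdown cells. This site ranked slightly higher in both knockdown lists, although the printed folds of the groups overlapped. Next in the lower direction was a region inside Mical2, an actin-oxidising enzyme (chr7:112287119-112291313), with an H3K27ac fold of 16.2 and 17.3 in control cells against 11.6 and 11.0 in knockdown cells. It was followed by regions inside Bin1, which shapes the T-tubule, Cux1, a homeodomain factor, and Ptp4a2, a phosphatase. In the higher direction the gap was largest at a region with no coding gene within 50 kb (chr16:30184303-30189744), with 11.5 and 12.1 in control cells against 16.6 and 14.7 in knockdown cells. The region at Heyl (chr4:123232586-123240418) came next with 7.25 and 7.69 in control cells against 9.64 and 8.28 in knockdown cells, and then those inside Pkig, inside Pi4kb and near Dnajb12. These regions were picked for their gap, so the values are a description.

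Of the 929 MyoD sites, 147 (15.8%) ranked lower and 125 (13.5%) higher in both knockdown lists, against 15.9% and 16.4% of all 9909. When the MyoD list of control 1, control 2, knockdown 1 or knockdown 2 was left out, 30.5% (31.1% of all MyoD regions), 34.2% (31.6%), 38.0% (34.5%) and 34.2% (34.3%) ranked lower in turn. The share ranked higher was 30.8% (32.7%), 27.3% (31.6%), 29.1% (34.4%) and 34.0% (34.1%). The largest gap in the lower direction was at chr3:52605446-52605844, in a region with no coding gene within 50 kb, where the fold was 8.03 and 8.28 in control cells against 4.42 and 4.70 in knockdown cells. Sites near Rab11fip4, inside Slc8b1 and inside Arl6ip5 were also among the 5 with the largest gap. In the higher direction a site inside Rora, a nuclear receptor (chr9:69339795-69340238), led with 6.12 and 6.29 in control cells against 9.58 and 9.01 in knockdown cells, followed by sites inside Prox1, near Ice1, at Tnnt1 and at Spata4.

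Sites of 1 region could rank apart singly or together. At least 1 site ranked lower in 130 regions and at least 1 ranked higher in 116, and every site ranked lower in 8 regions (Ralgds, 1110051M20Rik, Cass4, Inppl1, Asb5, Thsd4, Tln2 and Pttg1ip) and every site ranked higher in 2 (Dcakd and Ckb, the brain-type creatine kinase). These 10 regions were named after their values were seen. Shares of regions with a shifted MyoD site were of like size with and without a shift of H3K27ac. Of the 75 regions with lower H3K27ac, 25 (33.3%) had at least 1 lower MyoD site and 24 (32%) at least 1 higher one. Of the 62 regions with higher H3K27ac the numbers were 22 (35.5%) and 16 (25.8%), and of the remaining 269 they were 83 (30.9%) and 76 (28.3%). The difference between these shares was not tested.

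**Figure D5:**
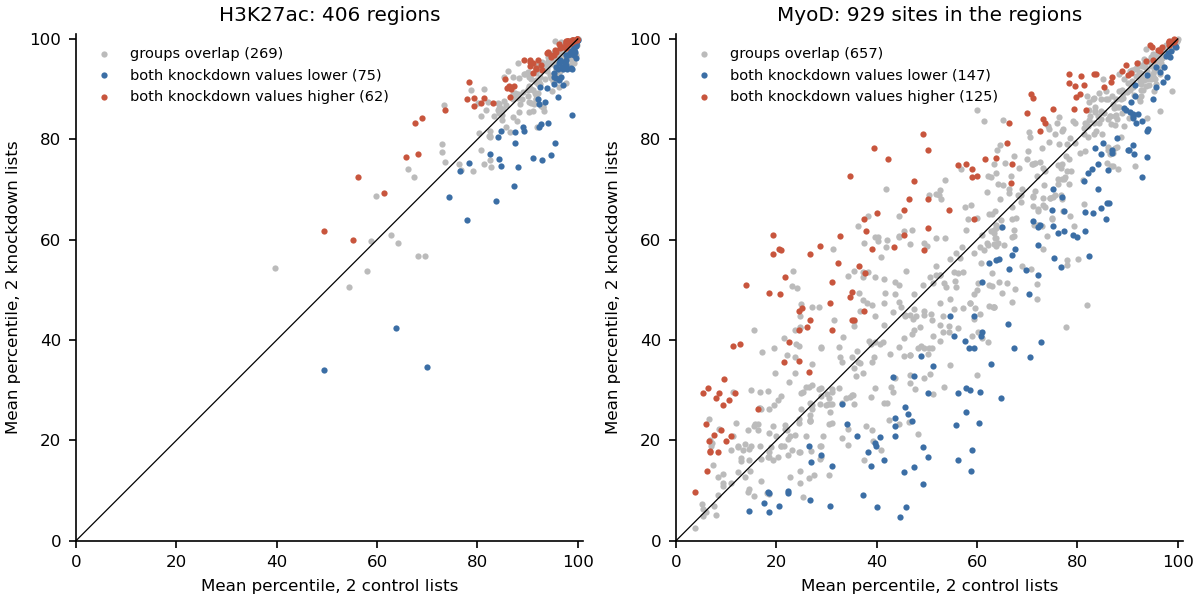
Mean percentile of the 2 knockdown lists (y axis) against that of the 2 control lists (x axis), for H3K27ac in the 406 regions (left) and for MyoD at their 929 sites (right), with the line of equal rank. H3K27ac values crowd at the upper right, MyoD values spread over the whole range, with points called lower (75 and 147) below the line and those called higher (62 and 125) above it.

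MyoD peaks were fewest in knockdown 2. The regions held 1089 and 1061 MyoD peaks in control cells against 1074 and 990 in knockdown cells, most of them at the 929 sites that the rule required, and this was 6.14% and 6.04% of the control lists and 6.53% and 7.58% of the knockdown lists. Of the 221 MyoD regions inside them that were not in all 4 lists, 144 and 120 had a peak in control cells against 117 and 38 in knockdown cells. A missing peak in at least 1 list chose these regions, so the counts are described without a test. The same count over all such MyoD regions of the genome was 7695 and 7561 against 6387 and 3029, so knockdown 2 was the lowest in both. Of the 1150 MyoD regions inside them, 46 (4%) lacked a peak only in knockdown 2, against 8.47% of all 24264. Only control 1, control 2 or knockdown 1 was lacking in 3, 9 and 6, which is 0.261%, 0.783% and 0.522%, against 1.36%, 1.39% and 2.76% of all. The 929 sites could not lack a peak, so lower shares are built into the choice of regions. Over MyoD regions missing from at least 1 list, knockdown 2 alone was lacking in 46 of 221, against 2056 of 14355. Control 1, control 2 and knockdown 1 alone were lacking in 3, 9 and 6 of the 221, against 330, 338 and 669 of the 14355.

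A MyoD peak of both controls and of neither knockdown library was found in 28 of the 1150 MyoD regions inside them (2.43%), and the reverse in 5 (0.435%), against 4.55% and 0.729% of all 24264. The 929 sites were required to be in all lists and could not count here. Over the regions missing from at least 1 list alone, the control-only share was 12.7% of 221, against 7.69% of 14355, and the knockdown-only share 2.3% against 1.23%. With 1 MyoD list left out, the control-only share of MyoD regions inside them was 4.6% when control 1 was dropped (15.8% of all MyoD regions), 5.56% for control 2 (15.6%), 6.76% for knockdown 1 (14.1%) and 2.76% for knockdown 2 (7.59%). The knockdown-only share was 1.22% (2.34%), 0.674% (2.31%), 1.10% (4.88%) and 2.54% (8.62%) in the same order. With the lists of an antibody cut to an equal number of peaks, the shares were 1.66% and 0.998%, against 2.74% and 1.97% of all MyoD regions.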

How the data were processed

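H3K27ac and MyoD peak lists of 8 ChIP libraries were used, 2 control and 2 knockdown for each antibody. The 8 input samples were not analysed here. Per the submitters' processing notes, the tools were MACS2 2.1.1, Bowtie2 2.3.2, bedtools 2.26.0, SAMtools 1.3 and Picard 2.9.2, on mm10. Options and the pairing of inputs with libraries are not stated. Each list was deposited per library and not for pooled replicates. The deposited fold is a linear ratio over background at the summit. A whole-number score and the −log10 p-value and −log10 q-value (1.30 or more in every list) stand beside it in the deposited files.

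Peaks of an antibody were merged at a gap of 0 bp with Python 3.11.15 and pandas 2.3.3, and any shared base counted as overlap. The highest fold of a region in each list was ranked among the regions of all 4 lists. Percentiles of the libraries were compared with the two-sided exact permutation test over 6 assignments. The choice of regions used the presence of peaks, so covered bases and numbers of peaks are given without it. The code was checked on simulated peaks. Gene names and places came from RefSeq GRCm38.p6 (21627 genes that are protein-coding or in a list), and all 452 genes of the 17 lists matched by symbol. A region is named by genes that start or end in it, otherwise by a gene body it overlaps, otherwise by the nearest gene within 50 kb. Regions were named by fixed ranks: most sites, width, H3K27ac percentile, MyoD fold, listed genes, and the 5 largest gaps between groups in each direction. A few items that these rules name are not reported here. The regions, gene lists and rules were chosen with earlier results of these data known. Alternatives covered the peak threshold, merge gap, overlap, equal peak number, width, site number, ranked measure and each library left out.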

Additional observations from a re-analysis of the deposited data

How the results depend on the processing

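With 3 or more MyoD sites required, 94 regions remained, and over the other alternatives and left-out libraries the number of regions ran from 308 to 499. Of the original 406, 297 overlapped a region chosen after merging peaks within 1000 bp. Requiring an overlap of at least 50% of the smaller interval could change only the overlap of H3K27ac with MyoD, since a peak lies wholly in its merged region. With equal peak numbers per list, the difference in MyoD peaks inside the regions turned to 7.5 from -43. Without H3K27ac knockdown replicate 2, the difference in covered bases turned to 2.12 percentage points and that in peaks per region to -0.332. The cause was not tested. The differences over left-out libraries ran from -5.24 to 2.12 percentage points for covered bases and from -0.332 to 0.640 for peaks per region. They ran from -1.06 to -0.17 for the H3K27ac percentile, from -1.86 to -0.068 for the MyoD percentile and from -93.5 to 0 for MyoD peaks. At some settings the median percentiles no longer overlapped, with both knockdown values lower. For H3K27ac the difference was -0.61 at 5 kb or wider and -0.85 with 3 or more sites. For MyoD it was -1.16 at 3 kb or wider and -2.12 with 3 or more sites (exact permutation p = 0.333 for each, the smallest possible). At the other settings with all libraries kept, the median percentiles overlapped.

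The knockdown-only share of MyoD regions was 0.226% with a −log10 q of at least 5, 0.0861% after merging within 1000 bp and 0.998% with equal peak numbers, and the control-only share was 1.55% after merging within 1000 bp. Ranking covered bases in place of fold gave 10.8% of regions lower, against 15.6% of all regions, and 15.8% higher, against 15.8%. Ranking the highest fold gave 18.5% lower, against 15.9%, and 15.3% higher, against 16.4%. With the mean fold of the peaks of a region ranked, 17.5% were lower, against 16.1%, and 18.7% higher, against 16.9%. With 1 library left out, groups of 1 and 2 lists are compared, so larger shares follow from the construction: 27.4% to 41.5% of regions lower (31.4% to 34.1% of all) and 24.3% to 37.1% higher (30.5% to 35.8%) for H3K27ac, 30.5% to 38.0% of sites lower (31.1% to 34.5%) and 27.3% to 34.0% higher (31.6% to 34.4%) for MyoD, and 2.76% to 6.76% control-only (7.59% to 15.8%) and 0.674% to 2.54% knockdown-only (2.31% to 8.62%).

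The labels give both groups replicate numbers 1 and 2 with no word on what the numbers share. With the replicate number as a block the differences were unchanged at -1.89 percentage points of covered bases, 0.135 peaks per region, -43 MyoD peaks, and -0.56 and -1.75 percentile points for H3K27ac and MyoD (paired exact sign-flip permutation p = 0.5 for each percentile, the smallest possible). Libraries of the same number deviated together weakly, with a correlation over regions of 0.128 for H3K27ac and 0.108 for MyoD. The lists hold no reads, so depth and the precision of a fold are unknown, and a peak that a list lacks may lie just under the caller's threshold.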
